A study of Mus musculus with 12 samples.

Results

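The Gclc mutation did not move the same genes by the same amount in the 2 kinds of regulatory T cell studied, and the genes for which the genotype effect differed between the kinds are described here. All 12 libraries of the series enter this comparison. For every gene the mutant against wild-type (WT) effect in nTregs, minus the same effect in iTregs, was tested as 1 contrast, called the difference in what follows. A positive difference means a more positive genotype effect in nTregs. The description is limited to genes whose mean reached 1 CPM (the count scaled to library size and TMM factor, as usual for RNA-seq) in 1 or more groups of each kind. Of 17977 genes tested, 13618 met this floor, and 2237 of them (16.4%) had a difference at an adjusted p below 0.05 by edgeR's quasi-likelihood test with Benjamini-Hochberg adjustment over all genes tested. A further 155 called genes lay below the floor. Among called genes, Maneal (1.004 CPM) lay just inside the floor and Eepd1 (0.997 CPM) just outside it.

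The animals were C57BL/6 mice aged 8 weeks. nTregs are Tregs isolated fresh from them, and iTregs are Tregs that were differentiated in culture from their naive CD4+ T cells. Each kind was taken from WT mice and from mice labelled as Gclc mutants, with 3 libraries in each of the 4 groups. The sources used here do not state the allele, any Cre driver, the organ or the culture conditions. Nor do they say that replicates are different mice, so a p-value reflects only how far these samples vary, and that variation may be technical.

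Gclc makes the catalytic part of the ligase that joins glutamate to cysteine, the slow step in building glutathione. Glutathione buffers reactive oxygen and uses cysteine and glycine, the latter made from serine. Serine is also a source of one-carbon units for nucleotide synthesis. ATF4 is a transcription factor of amino acid and stress responses that drives genes of amino acid transport, serine synthesis, asparagine synthesis and tRNA charging. nTregs arise mostly in the thymus and are largely quiescent when isolated, whereas iTregs are made from activated T cells in culture, which proliferate.

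Gclc itself (chromosome 9, 77754535 to 77794485 in GRCm38, plus strand) stood at 78.7, 79 and 70.8 CPM in WT nTregs, 45.8, 41.7 and 43.2 in mutant nTregs, 56.5, 53.2 and 51.9 in WT iTregs, and 18.8, 21 and 19 in mutant iTregs. The genotypes did not overlap in either kind. The fall was smaller in nTregs (log2 fold change -0.81) than in iTregs (-1.46), and the difference of 0.65 (SE 0.10) passed the test (adjusted p = 0.00381). In bulk samples, fewer cells of a type and less RNA per cell cannot be told apart. Foxp3, the factor that defines Tregs, read 610, 564 and 559 CPM in WT nTregs, 135, 181 and 217 in mutant nTregs, 300, 287 and 291 in WT iTregs, and 107, 96.4 and 75.5 in mutant iTregs. It fell by 1.70 in nTregs and by 1.66 in iTregs on the log2 scale, and the 2 falls differed by -0.04 with a 95% interval of -0.50 to 0.41 (adjusted p = 0.933).

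Total counts were 28707579 to 39886130 per library. Cd3e, Cd4, Il2ra and Ctla4 were present in all libraries, and Ikzf2 read 563 to 922 CPM in nTregs against 22 to 64.4 in iTregs. Mutant nTreg library 1 stood apart from the others of its group, with a limma sample weight of 0.177 against 0.454 to 2.62 elsewhere. The summed level of 12 CD8 and NK cell markers was 909 CPM in that library, 145 and 157 in the other mutant nTregs, 67.6 to 76.1 in WT nTregs and 39.2 to 72.4 in iTregs. Sums of 21 myeloid markers were 116 to 133 CPM in mutant nTregs, 77.8 to 81.2 in WT nTregs and 19.6 to 23.4 in iTregs. B and plasma cell markers (20 genes) summed to 1660 to 2710 CPM in mutant nTregs, 2350 to 2670 in WT nTregs and 183 to 250 in iTregs. Erythroid markers (10 genes) summed to 186 to 920 CPM in mutant nTregs, 116 to 393 in WT nTregs and 0.629 to 7.56 in iTregs. In iTreg libraries 2 to 3 of the CD8 and NK markers, 7 to 14 of the myeloid, 3 to 6 of the B and plasma cell and 4 to 8 of the erythroid markers had no count, against at most 2 of any list in nTreg libraries. The part of these cells in the results was not tested.

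Of the 2237 genes, 1206 (8.86% of genes at the floor) had a higher and 1031 (7.57%) a lower nTreg effect. Over all genes tested the counts were 1291 higher (7.18%) and 1101 lower (6.12%), or 54% higher. When libraries were scaled by library size alone, the median difference at the floor moved from 0.000763 to 0.137 on the log2 scale and the split became 2393 to 518, or 82.2% higher. One library could also move the counts. The higher count was 2146 without mutant nTreg library 1. It was between 610 and 716, and the lower count between 494 and 660, without any 1 of WT nTreg libraries 1 and 2, WT iTreg libraries 1 and 2 and mutant iTreg libraries 1 and 2.

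Sorted by the genotype effects within each kind, called genes were mostly those with a call in a single kind. The genotype effect itself was called for 40.4% of genes at the floor in nTregs (21.7% higher, 18.6% lower) and 30.8% in iTregs (16.7% higher, 14.1% lower). Over all genes tested the shares were 34.9% (19.3% higher, 15.6% lower) and 25.4% (14% higher, 11.4% lower). In 591 genes the nTreg effect alone was called and was a rise, and in 549 it was a fall. In 312 genes the iTreg effect alone was called and was a rise, and in 401 a fall. Both effects were called with opposite signs in a smaller set: 122 genes rose in mutant nTregs and fell in mutant iTregs, and 115 did the reverse. A further 69 genes changed in the same direction by different amounts, and in 78 neither effect was called on its own.

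**Figure D1:**
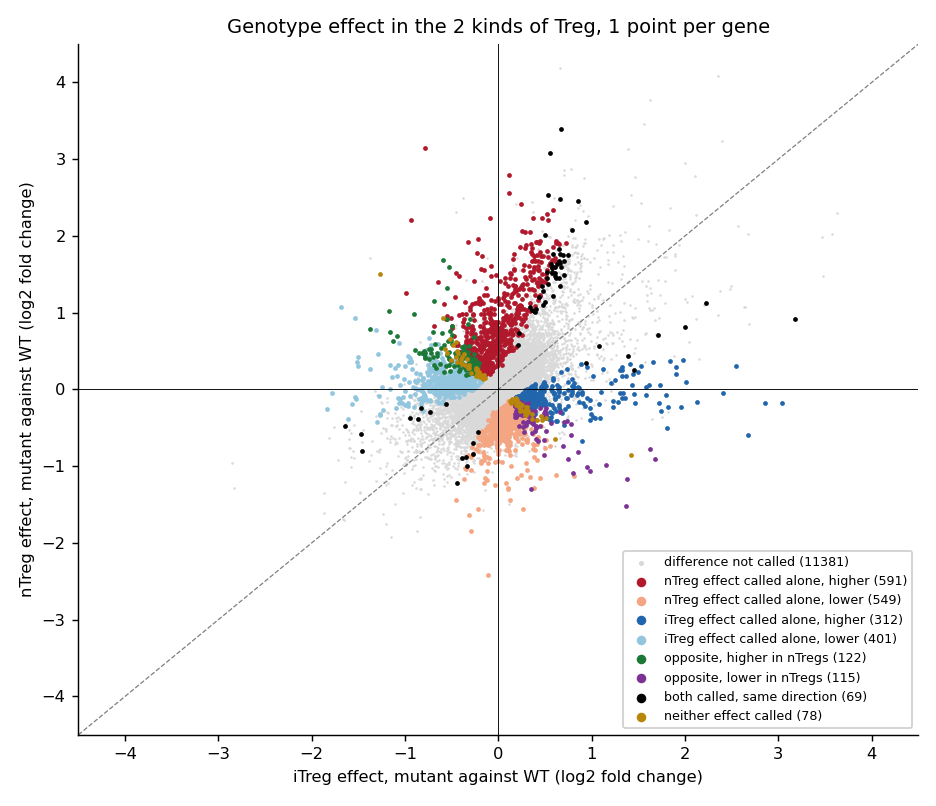
Genotype effect (mutant against WT, log2 fold change) in iTregs on the horizontal axis and in nTregs on the vertical axis, 1 point per gene at the 1 CPM floor, coloured by class. Genes called with opposite signs lie in the upper left (122) and lower right (115), and genes called in 1 kind alone lie along the axes.

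Genes called in 1 kind often had an estimate near 0 in the other. The effect in the other kind was under 0.25 in size on the log2 scale for 419 of the 591 genes that rose in nTregs alone and 496 of the 549 that fell, and for 270 of the 312 that rose in iTregs alone and 331 of the 401 that fell. These genes are called confined below. The limit was set on the estimate alone, so a confined gene may still have an effect in the other kind. The 95% interval of the iTreg effect was -0.95 to 1.18 for Nkg7 and -0.20 to 0.19 for Foxo1. For Cysltr1 the interval of the nTreg effect was -0.40 to 0.80. How many intervals stayed within 0.25 was not counted, and no share of all genes under this limit is given for comparison. Without mutant nTreg library 1 the genes that fell in iTregs alone numbered 857 and the opposite genes that rose in nTregs 211.

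The classes differed in base composition, a property the rule did not use. Median transcript GC content was 54.46% for genes that rose in nTregs alone, 56.86% for those that fell in iTregs alone and 56.595% for the opposite genes that rose in nTregs. It was 44.33%, 43.59% and 43.79% for the mirror classes, against 49.02% for all genes at the floor. Across 13554 genes, which are not independent replicates, Spearman's rho with GC content was 0.462 for the difference, -0.445 for the iTreg effect and 0.0843 for the nTreg effect. Genes were ordered by GC content and cut into 10 bins of nearly equal size. In the lowest bin, 0.959% were called higher and 20.2% lower, and in the highest bin 28.9% and 0.961%. The part of this property in the results was not tested.

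The libraries themselves showed the same gradient. For each library, the median log2 deviation from the gene's mean over the 12 libraries was taken in the highest and in the lowest GC bin. The highest less the lowest was -0.391, -0.489 and -0.147 in mutant iTregs and 0.195, 0.13 and 0.12 in WT iTregs, without overlap. In mutant nTregs it was 0.0737, 0.315 and 0.093, and in WT nTregs -0.0616, -0.116 and 0.187, with overlap. With a smooth GC term fitted per library, an alternative chosen after seeing the data, 650 genes were called higher and 790 lower. At the floor 983 calls were shared with the fit without it, 43.9% of the first set and 73.3% of the second. Still called were 96 of the 115 opposite genes that fell in nTregs (83.5%) and 77 of the 122 that rose there (63.1%), but 24.5% of genes that fell in iTregs alone. Only 27 of the 115 and 32 of the 122 were still called in opposite directions in the 2 kinds. Genes named below that lost their call under this term are marked as such.

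**Figure D2:**
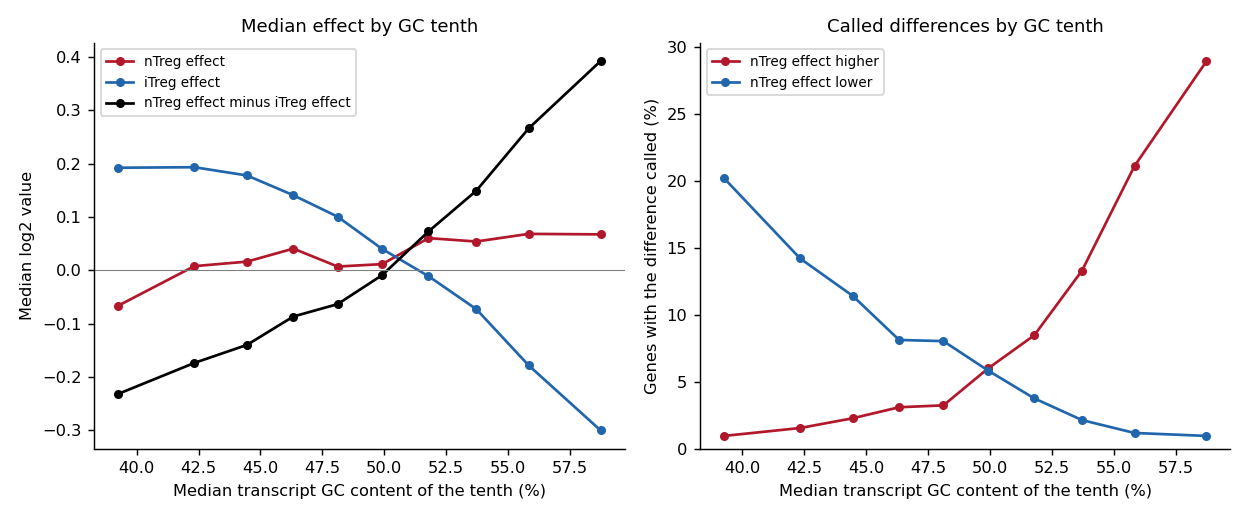
Left, median nTreg effect, iTreg effect and difference (log2) in 10 bins of genes ordered by transcript GC content (horizontal axis, percent); right, percent of genes in each bin with a called difference. The median difference ran from -0.2319 in the lowest bin to 0.3919 in the highest, and the iTreg effect from 0.1921 to -0.3001.

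Opposite genes that rose in mutant nTregs included Capn5, a calcium-dependent protease, and Ctsw, a cathepsin of cytotoxic lymphocytes. Capn5 (chromosome 7, 98121559 to 98178274, minus strand) read 2.65, 2.86 and 3.07 CPM in WT nTregs, 4.93, 6.98 and 5.48 in mutant nTregs, and 9.22, 8.79 and 10.5 in WT iTregs against 5.56, 4.17 and 2.88. Mutants lay above WT in nTregs and below WT in iTregs without overlap. The effects were 1.02 and -1.17 on the log2 scale, a difference of 2.20 (SE 0.29, adjusted p = 0.00207).

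Ctsw (chromosome 19, 5465240 to 5468498, minus strand) read 42.3, 46.6 and 48.6 CPM in WT nTregs and 89.4, 66.1 and 67.8 in the mutants. In iTregs it read 176, 147 and 122 in WT and 70.5, 86.3 and 53.2 in mutants. Neither kind showed overlap, and the difference was 1.78 (adjusted p = 0.0025). Mutant nTreg library 1, where CD8 and NK markers summed to 909 CPM, was the highest of the mutant nTregs, and without it the difference was 1.71.

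Tspoap1, which binds a mitochondrial outer membrane protein, read 29.1, 53.7 and 45.4 CPM in mutant nTregs against 15.3, 13.2 and 13.8 in WT, and 9.71, 8.88 and 8.38 in mutant iTregs against 11.7, 13.3 and 13.9. The groups were apart in both kinds, and the difference was 2.13 (adjusted p = 0.00156). Fes, a tyrosine kinase, differed by 1.87, and Mif, a cytokine, by 1.47. Med16, a Mediator subunit, differed by 1.15 (adjusted p = 0.0192), which became 0.0552 at most when mutant iTreg library 1 or 2 or WT nTreg library 2 was left out. With the GC term the iTreg fall of Mif, Fes, Tspoap1 and Med16 no longer passed, while the difference of each did.

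Opposite genes that fell in mutant nTregs included Nrn1, a membrane-anchored neuritin, and Coro2a, an actin-binding coronin. Nrn1 (chromosome 13, 36725625 to 36734477, minus strand) read 12.9, 21.1 and 19.7 CPM in mutant nTregs against 32.6, 34.4 and 39.2 in WT, and 54.7, 56.9 and 130 in mutant iTregs against 29.5, 34.3 and 44.6. Mutant iTreg library 4 was far above the others, but the genotypes did not overlap in either kind. The difference was -2.14 (SE 0.42, adjusted p = 0.00865). Without mutant nTreg library 1 it was -1.88 and passed, but the nTreg fall alone did not (adjusted p = 0.0939).

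Coro2a (chromosome 4, 46536937 to 46602202, minus strand) read 130, 153 and 151 CPM in mutant nTregs against 240, 216 and 200 in WT, and 55, 66.4 and 56.3 in mutant iTregs against 29.5, 33.1 and 41. Genotypes were apart in both kinds, with a difference of -1.38 (SE 0.17, adjusted p = 0.00164). Rasgef1b, an exchange factor for Ras-family GTPases, differed by -1.42 and Evi5, a regulator of Rab GTPases, by -1.66. Acsl3, which activates long-chain fatty acids, differed by -1.35, and the zinc finger gene Zfp870 by -1.05. With the GC term the iTreg rise of Evi5, Zfp870 and Acsl3 no longer passed, while their differences did.

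**Figure D3:**
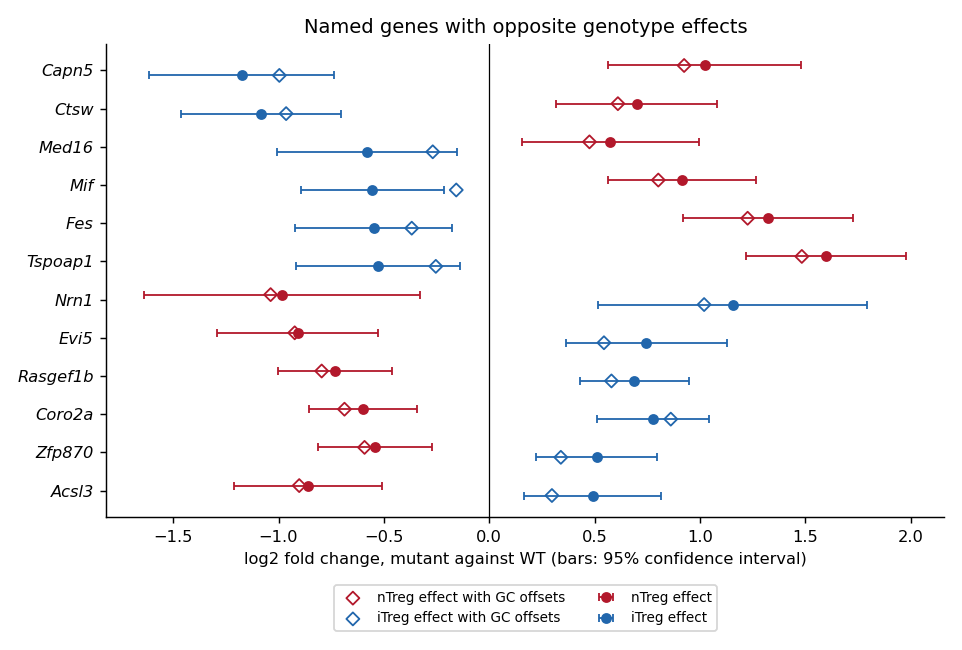
Genotype effect (log2 fold change, horizontal axis) of the 12 named opposite genes in nTregs (red) and iTregs (blue), as estimates with 95% confidence intervals and, as open diamonds, estimates with the GC term. Capn5 reads 1.02 in nTregs and -1.17 in iTregs, and Nrn1 -0.98 and 1.15.

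Among genes that rose in mutant nTregs with no call in iTregs, Gtse1, expressed in the G2 and S phases, read 24.8, 15.5 and 17.3 CPM in mutant nTregs against 5.19, 5.29 and 5.33 in WT, and 62.8, 58 and 77.3 in mutant iTregs against 45.9, 56.5 and 66.4. The nTreg groups were apart and the iTreg groups overlapped. The difference was 1.63 (adjusted p = 0.00351). Mxd3, a partner of MAX, differed by 2.01, Iqgap3, a scaffold protein, by 1.60, and Cit, a kinase of cytokinesis, by 1.39.

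Nkg7, a granule protein of cytotoxic cells, was also named. It read 14.5, 13.5 and 10.9 CPM in WT nTregs and 191, 40.9 and 37.9 in mutant nTregs, against 16.4 to 26.7 in iTregs. The difference of 2.68 (adjusted p = 0.0279) was 1.56 without mutant nTreg library 1, and passed there (0.00196). It did not pass (adjusted p up to 0.0702) without any 1 of mutant iTreg libraries 1 and 2, WT iTreg libraries 2 and 3 and the 3 WT nTreg libraries. The CD8 and NK marker sum was 909, 157 and 145 CPM in the mutant nTregs and 67.6 to 76.1 in WT. That sum includes Nkg7, so the 2 are not independent.

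Genes that fell in mutant nTregs alone included Tob1, an antiproliferative factor of resting T cells, and Sesn1, a sestrin that restrains mTORC1. Tob1 (chromosome 11, 94211454 to 94215495, plus strand) read 10.3, 12.3 and 12.2 CPM in mutant nTregs against 25.3, 28.1 and 27.5 in WT, and 13.1, 14.7 and 14.7 in mutant iTregs against 12.6, 13.7 and 13.9. Its nTreg groups were apart and its iTreg groups overlapped, with a difference of -1.30 (SE 0.13, adjusted p = 0.00144). Sesn1 read 188, 195 and 195 CPM in WT nTregs and 43.9, 73.1 and 78.8 in mutants, and its difference was -1.34 (adjusted p = 0.0056).

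Dapk1, a death-associated kinase, differed by -1.56. Lman2l, a lectin of the early secretory pathway, differed by -1.06 (adjusted p = 0.0361) and lost its call in 8 of the 12 fits that left out 1 library (up to 0.0836) and with the GC term.

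Of the 5 genes named among those that rose in mutant iTregs alone, Cd38, Lrrk2, B3gnt5 and Myo1e had a WT nTreg mean above the mutant iTreg mean. Over the whole class that order held for 77 of 312 genes (24.7%), against 13% of all 2273 genes called higher in mutant iTregs and 45.4% of genes at the floor. Cd38, an enzyme that consumes NAD (chromosome 5, 43868553 to 43912375, plus strand), read 2.51, 2.89 and 3 CPM in WT iTregs and 9.68, 8.03 and 7.47 in mutant iTregs, against 28, 38.2 and 35.5 in WT nTregs and 33, 36.2 and 34.2 in mutant nTregs. The iTreg groups were apart, the nTreg groups overlapped, and the difference was -1.56 (SE 0.19, adjusted p = 0.00156).

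Lrrk2, a kinase mutated in Parkinson's disease (chromosome 15, 91673175 to 91816120, plus strand), read 1.41, 1.63 and 1.54 CPM in WT and 5.03, 4.49 and 8.35 in mutant iTregs, and its difference was -2.19 (adjusted p = 0.00207). Myo1e, a class I myosin, differed by -1.51, and B3gnt5, a glycosyltransferase, by -1.67. Cysltr1, a leukotriene receptor, differed by -1.71 (adjusted p = 0.0191), and did not pass (up to 0.0553) without mutant iTreg library 1, WT iTreg library 2 or WT nTreg library 1 or 2.

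Among genes that fell in mutant iTregs alone, Clip2, a microtubule linker (chromosome 5, 134489383 to 134552434, minus strand), read 5.33, 5.98 and 4.86 CPM in WT and 2.24, 2.54 and 3.01 in mutant iTregs, against 9.9 to 12.5 in WT and 9.54 to 13.1 in mutant nTregs. The iTreg groups were apart and the nTreg groups overlapped, with a difference of 1.11 (adjusted p = 0.00826) that was 0.67 with the GC term (0.0346). The other named genes of the class, Hid1, Cracr2a, Btbd2 and Kcnip2, differed by 1.30, 0.85, 0.97 and 0.89. Each lost its call with the GC term and in 4 to 9 of the fits without 1 library.

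**Figure D4:**
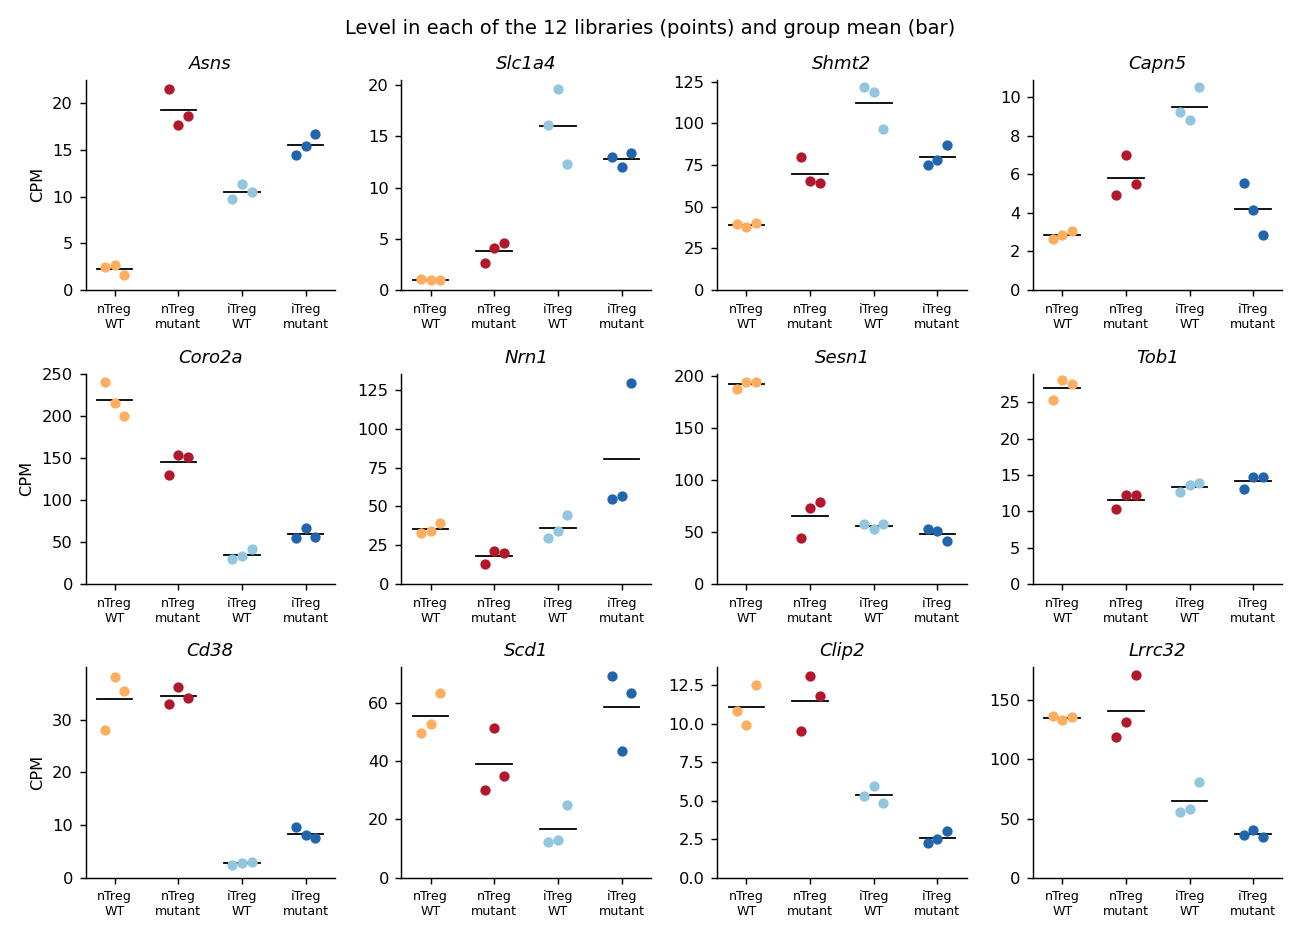
Level (CPM) of 12 genes in each of the 12 libraries (points) with the group mean (bar), by kind and genotype. Asns lies at 1.61 to 2.69 in WT nTregs and at 17.7 to 21.5 in mutant nTregs, Cd38 differs between genotypes in iTregs, and Coro2a moves in opposite directions.

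Cdkn1a, the p21 inhibitor of cyclin-dependent kinases, lies on chromosome 17 (29090979 to 29100722, plus strand). Predicted genes passed over, it had the most positive difference among called genes that reached 5 CPM on average in some group of each kind. It read 1.9, 2.36 and 2.14 CPM in WT nTregs, 29.5, 18.3 and 19.6 in mutant nTregs, 100, 131 and 152 in WT iTregs and 180, 162 and 266 in mutant iTregs. Genotypes were apart in both kinds, and it rose in both, by 3.39 and 0.67 (difference 2.72, SE 0.34, adjusted p = 0.00171).

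Itgam, the integrin CD11b, read 2.61, 3.1 and 3.66 CPM in WT nTregs and 11.6, 3.26 and 3.22 in mutants, and 7.69, 6.84 and 5.35 in WT iTregs against 2.32, 2.92 and 1.61. Only the iTreg groups were apart. Its difference of 2.47 (adjusted p = 0.0213) was 1.66 without mutant nTreg library 1, which holds the value of 11.6, and did not pass (up to 0.0596) without mutant iTreg library 1, WT iTreg library 1 or WT nTreg library 1 or 2. Myeloid marker sums, which include Itgam, were 116 to 133 CPM in mutant and 77.8 to 81.2 in WT nTregs. Arsb, a lysosomal sulfatase, read 104, 36 and 36.3 CPM in mutant nTregs against 24.8, 25.5 and 23.2 in WT. In iTregs it read 34.1, 51.7 and 23.7 in mutants against 83.2, 69.5 and 64.7, an effect of -0.99 that did not pass (adjusted p = 0.061). The difference of 2.25 (adjusted p = 0.016) was 1.63 without mutant nTreg library 1, where the nTreg rise alone did not pass (adjusted p = 0.0654).

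The most negative difference among called genes at the 5 CPM floor was that of Cd36, a receptor for fatty acid uptake. Cd36 lies on chromosome 5 (17781690 to 17888801, minus strand). It read 1.44, 0.716 and 1.41 CPM in WT iTregs and 4.88, 6.53 and 11.3 in mutant iTregs, and 5.26, 7.01 and 6.63 in WT nTregs against 2.47, 6.98 and 2.89. The iTreg groups were apart and the nTreg groups overlapped, with a difference of -3.27 (SE 0.58, adjusted p = 0.00576).

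Scd1, the stearoyl-CoA desaturase (chromosome 19, 44394451 to 44407709, minus strand), read 12.2, 12.8 and 25.1 CPM in WT iTregs and 69.3, 43.4 and 63.4 in mutant iTregs, and 49.7, 52.8 and 63.4 against 30.2, 51.5 and 34.8 in nTregs. The iTreg groups were apart, and the difference was -2.32 (adjusted p = 0.00482). Penk, an opioid precursor, rose in both kinds and differed by -2.26 (adjusted p = 0.0209; up to 0.0635 without WT iTreg or WT nTreg library 2). Sdc4, a syndecan, differed by -2.28 (adjusted p = 0.0476). The difference was -1.11 without mutant iTreg library 4 (adjusted p = 0.039), and the call was lost in 9 fits without 1 library (up to 0.105) and with the GC term.

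Of 39 tested genes of the ATF4 response, 15 had a higher nTreg effect, beside 7.18% of all genes tested. Their median effect was 0.447 in nTregs and -0.0806 in iTregs, against 0.0363 and 0.0365 over all genes. With the GC term 8 were higher and 1 lower. That fit called 650 of 17886 genes higher and 790 lower in all. The shares of 7.18% and 6.12%, which come from the fit without it, therefore do not apply to list counts under the GC term, here or below. Without the GC term, the higher count was 10 without mutant iTreg library 2, WT iTreg library 1 or 2 or WT nTreg library 2 or 3. It was 21 without mutant nTreg library 1. Of 38 genes of serine and one-carbon metabolism 12 were higher and 1 lower, and 11 and 1 with the GC term. That count ranged from 6 without mutant iTreg library 1 to 20 without mutant nTreg library 1.

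Asns, the asparagine synthetase (chromosome 6, 7675169 to 7693254, minus strand), read 2.51, 2.69 and 1.61 CPM in WT nTregs, 21.5, 17.7 and 18.6 in mutant nTregs, 9.79, 11.3 and 10.5 in WT iTregs and 14.4, 15.4 and 16.7 in mutant iTregs. Genotypes were apart in both kinds. It rose by 3.09 in nTregs and 0.55 in iTregs, and the difference of 2.53 (SE 0.21) had an adjusted p of 0.000292. Slc7a5 and Slc7a1, transporters of large neutral and of cationic amino acids, differed by 1.39 and 0.61.

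Shmt2, the mitochondrial serine hydroxymethyltransferase (chromosome 10, 127517123 to 127522444, minus strand), moved in opposite directions. It read 39.7, 37.7 and 40.5 CPM in WT nTregs, 80.1, 65.4 and 64.2 in mutant nTregs, 122, 119 and 96.6 in WT iTregs and 75.3, 78 and 86.8 in mutant iTregs. No genotypes overlapped, and the difference was 1.32 (SE 0.15, adjusted p = 0.00156). With the GC term it was 1.002, and the iTreg fall did not pass (adjusted p = 0.0956).

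Slc1a4, a transporter of serine and other small neutral amino acids, read 1.09, 0.943 and 0.992 CPM in WT nTregs and 2.62, 4.13 and 4.62 in mutants, against 16.1, 19.6 and 12.3 and 13, 12 and 13.4 in iTregs. The nTreg groups were apart, the iTreg groups overlapped, and the difference was 2.24 (adjusted p = 0.00207). Phgdh, the first enzyme of serine synthesis, and Mthfd2, a mitochondrial folate enzyme, rose in nTregs with differences of 0.78 and 0.85, and their iTreg effects were 0.03 and 0.08.

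Of 23 tRNA synthetases 5 (21.7%) had a higher nTreg effect, beside 7.18% of all genes tested. With the GC term, which called fewer genes higher in all, 2 did. Without that term the count was 10 without mutant nTreg library 1 and 4 or more in the other fits without 1 library. Aars, Eprs, Gars, Iars, Sars, Tars and Yars are in the ATF4 list too. The calls of Aars and Sars thus enter both counts, which are not independent. Slc38a2, which was not called, is in both the ATF4 list and the serine and one-carbon list. Aars, which charges alanine tRNA, read 59.5, 59.2 and 57.5 CPM in WT nTregs and 119, 87.4 and 88 in mutants, against 128, 130 and 108 and 112, 113 and 121 in iTregs. The nTreg groups were apart and the iTreg groups overlapped, and the difference of 0.82 (adjusted p = 0.00767) was 0.54 with the GC term (0.0692). Sars, Wars and Vars differed by 0.57, 0.58 and 0.59, and Vars lost its call with the GC term.

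ATF4 binds with C/EBP partners to an element of the form TGATGNAA. Both strands of RefSeq promoter windows (GRCm38.p6, 250 bases before to 50 after the start) were searched for these letters. They occurred in 4.51% of all 27025 genes with a window, in 12 of 30 ATF4 response genes (40%), in 4 of the 11 of these with a higher nTreg effect (36.4%) and in 1 of 30 serine and one-carbon genes (3.33%). Among genes at the floor they occurred in 2.68%. Members of the ATF4 list were picked from general knowledge as genes of that factor. Their share may follow from that choice and is no result about these libraries. Slc7a1, a member that also rose in nTregs alone, has 2 windows and a match in neither. The 120 bases before the start of Asns (chr6:7693210-7693329, minus strand) and of Aars (chr8:111033722-111033841, plus strand) are shown because both genes rose in nTregs and hold a match, in capitals and read 5′ to 3′. The Asns match lies 23 to 16 bases before the start, and that of Aars, on the other strand, 112 to 105.
Asns: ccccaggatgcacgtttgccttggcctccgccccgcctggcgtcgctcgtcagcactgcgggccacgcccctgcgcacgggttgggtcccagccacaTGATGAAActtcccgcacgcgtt
Aars: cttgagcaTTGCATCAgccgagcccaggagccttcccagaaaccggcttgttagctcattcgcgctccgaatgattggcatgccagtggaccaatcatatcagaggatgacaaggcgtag

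Of 52 proliferation genes 29 (55.8%) had a higher nTreg effect, beside 7.18% of all genes tested (33 with the GC term), of which 24 were called in nTregs alone and 5 in both kinds. Medians were 1.53 in nTregs and 0.572 in iTregs. The count fell to 13 without WT iTreg library 3 or WT nTreg library 3. E2f1, a transcription factor of S phase entry, read 5.36, 5.69 and 4.43 CPM in WT nTregs and 16.4, 13.3 and 11.6 in mutants, against 25.3, 29.7 and 29.3 and 23.9, 23.7 and 22.7 in iTregs.

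The iTreg groups of E2f1 did not overlap either, although the iTreg effect of -0.26 did not pass (adjusted p = 0.132), and the difference was 1.67 (adjusted p = 0.00156). The helicase subunits Mcm2 and Mcm3 differed by 1.13 and 1.15, and Uhrf1, which maintains DNA methylation, by 1.38. Of 37 MYC and ribosome biogenesis genes 10 (27%) were higher, beside 7.18% of all genes tested, and 2 with the GC term. The count was 5 without library 1 or 2 of mutant iTregs, WT iTregs or WT nTregs. Srm, which makes spermidine, Cad, of pyrimidine synthesis, and the ribosome factor Rrp12 differed by 0.86, 0.79 and 0.65 and lost their calls with it, and Rrp1b (0.58) kept its call.

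**Figure D5:**
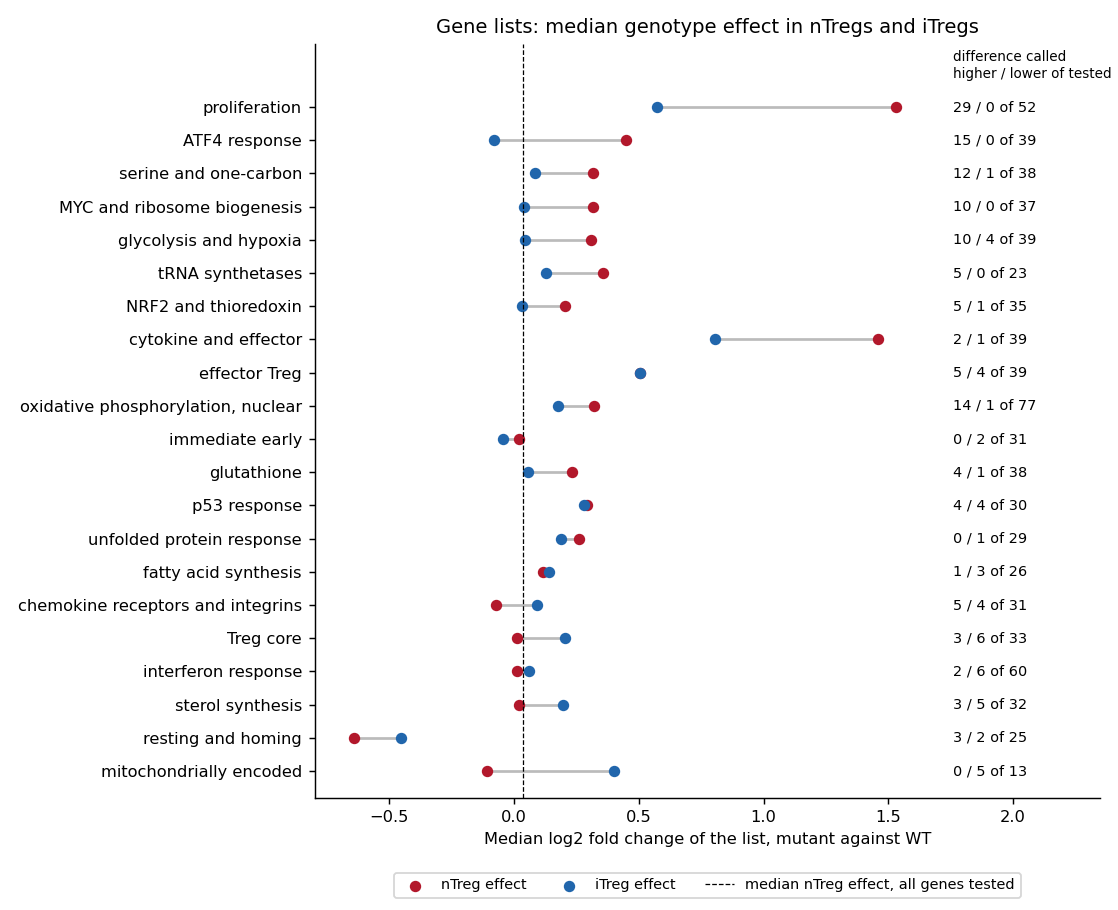
Median genotype effect (log2) of each gene list in nTregs (red) and iTregs (blue), with the number of members whose difference was called higher or lower. The dashed line is the median nTreg effect of all genes tested. Proliferation reads 1.53 and 0.572, and the mitochondrially encoded genes -0.107 and 0.402.

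Of 77 nuclear genes of oxidative phosphorylation 14 (18.2%) were higher and 1 lower, beside 7.18% and 6.12% of all genes tested (8 and 1 with the GC term). The higher count ran from 6 (without mutant iTreg library 1 or 2 or WT nTreg library 2) to 23 (without mutant nTreg library 1). Atp5g1, a subunit of the ATP synthase ring, rose by 0.54 in nTregs and fell by 0.36 in iTregs, a difference of 0.90 (adjusted p = 0.00167). Ndufa11 and Ndufa8, subunits of complex I, differed by 1.11 and 0.65. Atp5g2 differed by 0.47, and by -0.07 with the GC term, where its call was lost.

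Of 13 mitochondrially encoded genes 5 were lower, beside 6.12% of all genes tested. mt-Cytb, of complex III, read 3140, 2920 and 3730 CPM in WT iTregs and 5470, 5140 and 4200 in mutants, against 4070 to 4360 and 3690 to 4470 in nTregs. The iTreg groups were apart and the nTreg groups overlapped, with a difference of -0.64 (adjusted p = 0.026). mt-Co3, mt-Nd3 and mt-Nd6 differed by -0.59, -0.60 and -1.46. Without mutant iTreg library 1 the mt-Nd6 difference was -0.96. All 4 calls were lost with the GC term and in 6 or more of the fits without 1 library. Under the GC term 0 of the 13 genes were called lower.

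Of 39 glycolysis and hypoxia genes 10 (25.6%) were higher and 4 (10.3%) lower, beside 7.18% and 6.12% of all genes tested, and 4 and 2 with the GC term. The higher count ran from 4 (without library 1 or 2 of mutant or WT iTregs or WT nTreg library 2) to 14 (without mutant nTreg library 1), and the lower from 2 to 4. Gpi1, the glucose phosphate isomerase, rose by 0.20 in nTregs and fell by 0.31 in iTregs, and with the GC term the nTreg rise did not pass (adjusted p = 0.12). P4ha1, a collagen prolyl hydroxylase subunit, and Pdk1, which inhibits pyruvate dehydrogenase, fell in nTregs alone with differences of -1.14 and -0.76.

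Of 33 core Treg genes 3 (9.09%) were higher and 6 (18.2%) lower, beside 7.18% and 6.12% of all genes tested (1 and 6 with the GC term). The higher count ran from 1 (without WT iTreg library 2 or WT nTreg library 1 or 2) to 6 (without mutant nTreg library 1), and the lower from 3 (without library 2 of WT iTregs or WT nTregs) to 7. Tigit, a coinhibitory receptor, read 2.19, 2.23 and 2.4 CPM in WT iTregs and 6.47, 5.87 and 6.4 in mutants, against 62.3, 62.6 and 53.3 and 64.1, 79.8 and 68 in nTregs. Genotypes were apart in both kinds, and the difference was -1.20 (SE 0.15, adjusted p = 0.00164). Il2ra, the IL-2 receptor alpha chain, differed by -0.48 (adjusted p = 0.0111).

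Lag3, another coinhibitory receptor, rose in nTregs alone and differed by 0.91 (adjusted p = 0.0188, and up to 0.0545 without WT iTreg library 2 or WT nTreg library 1). Lrrc32, which holds latent TGF-beta on Tregs, read 55.9, 58.2 and 80.9 CPM in WT and 36.5, 40.7 and 34.6 in mutant iTregs and differed by 0.86 (adjusted p = 0.0196, and 0.0531 without WT nTreg library 2). Both lost their calls with the GC term.

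Of 39 effector Treg genes 5 (12.8%) were higher and 4 (10.3%) lower, beside 7.18% and 6.12% of all genes tested. Without 1 library these counts ran from 2 to 8 and from 1 to 5, the higher count highest without mutant nTreg library 1 and the lower without mutant iTreg library 4. Under the GC term 3 members were higher and 3 lower. Myb differed by 0.71. Ccr4, a skin-homing receptor, differed by -1.38 (adjusted p = 0.0238) and did not pass (up to 0.0646) without library 1 or 2 of WT iTregs or of WT nTregs.

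Of 25 resting and homing genes 3 (12%) were higher and 2 (8%) lower, beside 7.18% and 6.12% of all genes tested. The lower count was 4 without mutant nTreg library 4. Counts were 1 higher and 1 lower with the GC term. Foxo1, a factor of T cell quiescence (chromosome 3, 52268336 to 52353221, plus strand), read 294, 299 and 321 CPM in WT nTregs and 152, 180 and 194 in mutants, against 205, 218 and 219 and 221, 223 and 196 in iTregs. The nTreg groups were apart, the iTreg groups overlapped, and the difference was -0.79 (adjusted p = 0.00369). Klf2, a driver of lymphoid homing, fell in iTregs and differed by 0.94, a call lost with the GC term. Igfbp4 differed by 2.04 (adjusted p = 0.0128).

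Of 32 sterol genes 3 (9.38%) were higher and 5 (15.6%) lower, beside 7.18% and 6.12% of all genes tested. With the GC term the 3 higher calls were lost and 4 genes were lower. The lower count ran from 2 (without library 2 of WT iTregs or WT nTregs) to 9 (without WT iTreg library 3). Insig2 and Msmo1, a regulator and an enzyme of cholesterol synthesis, rose in iTregs alone with differences of -0.56 and -0.57, and Scap (0.42) lost its call with the GC term. Of 26 fatty acid synthesis genes 1 (3.85%) was higher (3 without mutant nTreg library 1) and 3 (11.5%) lower (5 without mutant iTreg library 4). Fasn, the fatty acid synthase, rose by 0.40 in nTregs and fell by 0.28 in iTregs, a fall that did not pass with the GC term (adjusted p = 0.689).

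Of 38 glutathione genes 4 (10.5%) were higher and 1 lower, beside 7.18% and 6.12% of all genes tested, and 1 and 1 with the GC term. The higher count was 13 without mutant nTreg library 1 and 1 without mutant iTreg library 1, WT iTreg library 1 or any 1 WT nTreg library. Gstp1, a glutathione transferase, differed by 0.44 and lost its call with that term. Of 35 NRF2 and thioredoxin genes 5 were higher and 1 lower, and the higher count was 2 without library 1 or 2 of mutant iTregs or WT nTregs or library 1 or 3 of WT iTregs. Counts were 4 higher and 1 lower with the GC term. Ftl1, the ferritin light chain, fell in iTregs and differed by 0.85 (adjusted p = 0.00504), and the transketolase Tkt differed by 0.72.

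Of 30 p53 response genes 4 (13.3%) were higher and 4 (13.3%) lower, beside 7.18% and 6.12% of all genes tested. The higher count was 7 without mutant nTreg library 1. The lower count was 2 without library 1 of WT or mutant iTregs or library 1 or 2 of WT nTregs. Under the GC term 3 members were higher and 2 lower. Gadd45a, a stress-induced growth arrest gene, fell by 1.09 in nTregs and rose by 0.80 in iTregs (difference -1.89, adjusted p = 0.00321). Pidd1 differed by 1.01. Of 60 interferon response genes 2 (3.33%) were higher and 6 (10%) lower. The lower count ran from 3 (without WT nTreg library 1 or 2) to 10 (without mutant iTreg library 4). Counts for this list were 0 higher and 3 lower with the GC term. Ly6e fell by 0.32 in nTregs and rose by 0.34 in iTregs, and Rtp4 differed by -1.03.

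Of 31 chemokine receptor and integrin genes 5 (16.1%) were higher and 4 (12.9%) lower, beside 7.18% and 6.12% of all genes tested. The higher count was 2 without library 2 of any group but mutant nTregs or without WT iTreg library 1. The lower count was 1 without WT iTreg library 2. Under the GC term 2 members were higher and 5 lower. S1pr4, a sphingosine phosphate receptor, differed by 0.69 and lost its call with the GC term, and Itgb2, the beta 2 integrin chain, by 0.54. Of 39 cytokine genes 2 (5.13%) were higher (5 without mutant nTreg library 4) and 1 (2.56%) lower. Counts for this list were 1 higher and 1 lower with the GC term. Ltb, which encodes lymphotoxin beta, differed by 0.58 (0.11 with the GC term, where its call was lost). Among 31 immediate early genes Klf6 fell by 0.30 in nTregs and rose by 0.66 in iTregs. Among 29 unfolded protein response genes Edem1 differed by -0.52.

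Among the marker lists of other cells, Nkg7 was the called gene of 12 CD8 and NK markers (8.33%) and Itgam that of 17 myeloid markers tested (5.88%). Both were higher, beside 7.18% of all genes tested. In mutant nTregs 8 of the 12 CD8 and NK markers were called higher, beside 19.3% of all genes tested, and in mutant iTregs 0. Their median effect was 2.03 in nTregs and 0.151 in iTregs, with a median difference of 1.72. Of the 17 myeloid markers 4 were called higher in mutant nTregs. Of 19 B and plasma cell markers 2 were called lower there, beside 15.6% of all genes tested. Fcmr (-2.58, adjusted p = 0.0131) was the called gene of 19 B and plasma cell markers (5.26%), beside 6.12% of all genes called lower. Of 8 erythroid markers tested, 2 were called higher in mutant nTregs and 1 in mutant iTregs, beside 19.3% and 14% of all genes tested. The median fitted difference of these markers was 2.57, with a median nTreg effect of 1.37. Between 4 and 8 of the 10 measured had no count in any 1 iTreg library. Car2, which was high enough to be named, differed by -0.86 (adjusted p = 0.463).

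Of the 591 genes that rose in nTregs alone, 403 (68.2%) had a WT iTreg mean at or above the mutant nTreg mean. The share was 67.1% for all 2959 genes at the floor called higher in mutant nTregs, and 54.4% for all genes at the floor.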

How the data were processed

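RNA-seq of 12 libraries was analysed from the raw count per gene that the authors deposited. Per the submitters' processing notes, bcl2fastq 2.18.0.12 and STAR 2.5.2b were used, with mm10. Per the file headers, counts were made with featureCounts (Subread 1.5.2) on the reverse strand over exons of Ensembl GRCm38, and multi-mapping and overlapping reads were counted, so genes with near-identical copies are uncertain. Symbols were found for 49326 of 49671 genes.

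edgeR 4.0.16 (R 4.3.3) was fitted with TMM factors, filterByExpr, 4 group means and 8 residual degrees of freedom, by quasi-likelihood with Benjamini-Hochberg adjustment over 17977 genes at 0.05. Values are log2 fold changes unless given as CPM. On simulated data, with 50 genes changed at each fold, the difference was found for 30% changed 1.5-fold, 76% changed 2-fold and 96% changed 3-fold. There 7 of 156 calls (4.49%) were false. These rates describe the simulated data and were not measured for the calls in the real data. GC content came from GENCODE transcripts. Alternatives used DESeq2 1.42.0 and limma 3.58.1.

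Named genes were those with the 6 largest called differences in each direction, the 6 strongest opposite genes per orientation and the 5 strongest confined genes per class. All of these had 5 CPM in each kind. Up to 4 passing members per list, Gclc and Foxp3 were named as well. A few genes that this rule reaches are not reported here. The members and lists were chosen with earlier results of these data known.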

Additional observations from a re-analysis of the deposited data

Results flagged for a closer look

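For each named gene below, the genotype effect differed between nTregs and iTregs by the test of the difference itself (edgeR, adjusted p below 0.05). The value is the nTreg effect minus the iTreg effect on the log2 scale, with the value under the GC term in parentheses. Higher in nTregs was the effect on Gclc by 0.65 (0.70), Cdkn1a by 2.72 (2.53), Nkg7 by 2.68 (2.54), Asns by 2.53 (2.58), Itgam by 2.47 (2.47) and Arsb by 2.25 (2.19). The same direction held for Capn5 by 2.20 (1.92), Ctsw by 1.78 (1.57), Med16 by 1.15 (0.74), Mif by 1.47 (0.96), Fes by 1.87 (1.59) and Tspoap1 by 2.13 (1.74). Further positive differences were those of Gtse1 by 1.63 (1.44), Mxd3 by 2.01 (1.72), Iqgap3 by 1.60 (1.35), Cit by 1.39 (1.20), Hid1 by 1.30 (0.96) and Cracr2a by 0.85 (0.84). The remaining positive ones were Btbd2 by 0.97 (0.47), Kcnip2 by 0.89 (0.66) and Clip2 by 1.11 (0.67). Of these, Hid1, Cracr2a, Btbd2 and Kcnip2 lost their calls with the GC term.

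The nTreg effect was lower for Cd36 by -3.27 (-3.04), Scd1 by -2.32 (-2.26), Sdc4 by -2.28 (-2.28), Penk by -2.26 (-2.38), Lrrk2 by -2.19 (-2.10) and Nrn1 by -2.14 (-2.06). Negative differences were also found for Evi5 by -1.66 (-1.47), Rasgef1b by -1.42 (-1.38), Coro2a by -1.38 (-1.55), Zfp870 by -1.05 (-0.93), Acsl3 by -1.35 (-1.20) and Sesn1 by -1.34 (-1.35). The next were Dapk1 by -1.56 (-1.70), Tob1 by -1.30 (-1.20), Lman2l by -1.06 (-0.99), Cysltr1 by -1.71 (-1.46) and B3gnt5 by -1.67 (-1.46). The last were Cd38 by -1.56 (-1.37) and Myo1e by -1.51 (-1.57). Of these, Sdc4 and Lman2l lost their calls with the GC term.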

How the results depend on the processing

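Scaling by RLE kept the call of all 112 named results, as did DESeq2. Scaling by library size alone gave 2393 genes with a higher and 518 with a lower nTreg effect, 1606 genes higher in mutant iTregs, 260 and 36 opposite genes (nTregs up and down), 1076 and 247 genes changed in nTregs alone (up and down), 146 and 708 in iTregs alone, 126 in the same direction, and confined genes of 805 and 214 in nTregs and 119 and 597 in iTregs. With no filter on low counts there were 76 opposite genes down in nTregs and 166 in the same direction, and with 1 CPM in 3 libraries 188 opposite genes up in nTregs. DESeq2 gave 470 genes up in iTregs alone (426 confined), 197 in the same direction and 168 with neither effect called. limma voom with sample weights gave 2487 higher and 2524 lower, 4870 and 3460 in iTregs, 323 and 319 opposite, 1089 and 1007 in iTregs alone (1027 and 850 confined), 370 in the same direction and 139 with neither.

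Nothing in the labels says that replicate numbers pair the libraries. The correlation of deviations from the group mean ran from -0.064 to 0.05 over 14 same-number pairs. With 3 libraries per group, such values cannot show whether libraries share a mouse, so fits with a block are given too. With the number as a block there were 821 higher and 650 lower, 1677 and 1359 in iTregs, 30 and 31 opposite, 329 down in nTregs alone, 172 and 239 in iTregs alone, 33 in the same direction, 131 with neither, and confined genes of 247 and 286 in nTregs and 138 and 185 in iTregs. With genotype and number as the block there were 769 and 571, 357 and 251 in nTregs alone, 156 and 208 in iTregs alone, 41 in the same direction, 18 with neither, and confined genes of 225, 212, 120 and 166. In this setting only the difference was fitted with the block. The effects within each kind that sort genes into classes came from the fit without it.

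The GC term, chosen after seeing the data, gave 650 higher, 1394 higher in iTregs, 41 and 63 opposite, 389 up in nTregs alone (245 confined), 152 and 135 in iTregs alone (124 and 116 confined) and 26 with neither. With the block added there were 280 and 381, 824 and 1268 in iTregs, 13 and 28 opposite, 164 and 245 in nTregs alone, 70 and 74 in iTregs alone, 15 in the same direction, 22 with neither, and confined genes of 82, 201, 50 and 48.

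Leaving out 1 library gave 610 to 2146 higher and 494 to 1310 lower, 2485 to 3610 and 2003 to 3056 in nTregs, 773 to 3164 and 997 to 3096 in iTregs, 34 to 211 and 32 to 140 opposite, 275 to 657 and 253 to 771 in nTregs alone, 108 to 434 and 174 to 857 in iTregs alone, 10 to 242 in the same direction, 26 to 123 with neither, and confined genes of 177 to 556, 217 to 718, 92 to 386 and 140 to 693.

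Direction reversed for Foxp3, not called in any of these, to 0.10 by library size alone, 0.01221 with 1 CPM in 3 libraries, 0.009957 with voom, 0.06772 without mutant iTreg library 1 and 0.1924 without mutant nTreg library 1. Without 1 library it ran from -0.2284 to 0.1924. It reversed for Car2, to 0.1317 without mutant iTreg library 4 in a range of -1.315 to 0.1317 without 1 library, and for Atp5g2, to -0.06568 with the GC term and -0.06717 with the block added. Where no cause is named, the cause was not tested.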

Other observations

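Zinc finger genes whose symbol starts with Zfp, a family chosen after its values were seen, were counted by edgeR's test of the difference. Of 325 such genes at the floor, 50 had a lower and 4 a higher nTreg effect, beside 7.57% lower and 8.86% higher of all genes at the floor, with a median difference of -0.208 (nTreg effect -0.245, iTreg effect -0.0185). Their median transcript GC content was 43.1%. With the GC term 23 were lower and 1 higher, and the median difference was -0.129.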
